A study of Homo sapiens with 17 samples.

Results

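The mRNAs described are those of the solute carrier (SLC) genes, which encode most of the secondary active and facilitative transporters of human membranes. Members were selected on measured values. A member is a protein-coding gene with a symbol of SLC and a family number and an average TPM, a transcript level scaled to length and library size, of at least 5 in both the PABPN IP and the PABPC IP. This gave 174 members among 241 listed protein-coding SLC genes and 18869 listed genes in all. Of the members, 35 belong to SLC25, the carriers of the mitochondrial inner membrane and a few of other organelles, and 139 belong to 44 other families.

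Ribo-STAMP marks RNAs in contact with ribosomes by C-to-U edits. HEK293T cells, a line derived from human embryonic kidney, carried a lentivirally integrated construct encoding the editing enzyme APOBEC1 fused to the small subunit protein RPS2 (RPS2-STAMP), or APOBEC1 alone (Control-STAMP). Expression was switched on with doxycycline at 50 ng/ml for 24 h, and the cells were crosslinked with 0.1% formaldehyde before RNA was taken from the lysate (Input) or after IP of PABPN or PABPC, the nuclear and the cytoplasmic poly(A)-binding proteins. The 17 samples comprised 9 of RPS2-STAMP, 3 in each of the fractions, and 8 of Control-STAMP, with 3 Inputs, 3 PABPN IPs and 2 PABPC IPs. A fusion protein made from an integrated construct need not behave as the native ribosomal protein, and edits accumulate over the whole induction. The study describes the lysate as cytoplasmic, while the labels name no fractionation. EPKM counts edited reads per kilobase of transcript, scaled to the number of mapped reads, and the normalized EPKM has the editing of the control condition subtracted. Below, a value with PABPN or with PABPC is one in RNA from that IP. All values are pooled by the authors over replicates, so no difference can be set against the spread between replicates, and the depth behind each value is unknown. Lysates are bulk samples, in which fewer cells with a transcript and less of it per cell cannot be told apart.

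Solute carriers move amino acids, sugars, nucleotides, ions, metals, vitamins and lipids across membranes along concentration gradients or coupled to them. Most are made at the endoplasmic reticulum and inserted into the membrane during translation, whereas SLC25 proteins are synthesised in the cytosol and imported into the inner mitochondrial membrane, where they link the matrix with cytosolic metabolism. SLC25 proteins are built from a repeated module of paired helices. Most of their coding sequences are short, though those of the members run from 822 to 2034 bases.

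The TPM minimum left out 67 of the 241 protein-coding genes: 46 were below it in both IPs, 17 with PABPC only and 3 with PABPN only, and 1 (SLC5A3, the myo-inositol cotransporter) has no TPM. Just inside were SLC8B1, a mitochondrial sodium/calcium exchanger, with a TPM of 5.03 with PABPC, SLC4A11 of the bicarbonate transporter family with 5.09, and SLC6A11, a GABA transporter, with 5.11. Just outside were SLC7A8, an amino acid transporter, and SLC27A5 with TPMs of 4.90 and 4.81 with PABPN. For SLC25, 8 of 43 listed genes were left out. Among the members are 5 genes whose symbols start with SLC but whose products are not carriers: SLC2A4RG, SLC4A1AP, SLC7A6OS, SLC9A3R1 and SLC9A3R2. They were picked by what their products do, after values had been seen. Of 28 textbook carriers listed by name, 26 are members. SLC2A3, the neuronal glucose transporter, reached 1.33 TPM with PABPN, and SLC16A3 was not analysed here. The label of the cell line was checked with intermediate filament genes known from HEK293 cells: Input TPM was 184 for VIM, 24.8 for KRT18, 26.9 for NEFL, 24.1 for INA and 9.0 for NEFM, but 2.16 for KRT8. COL1A1, a fibroblast gene, had an Input TPM of 1.90, and PTPRC, HBB, ALB and PECAM1 were not analysed here.

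Transcript levels, which chose the members and are given as a description, spanned a wide range. The median TPM of the members was 12.1 in the Input and 26.4 with PABPC, against 15.8 and 28.9 over the 9607 protein-coding genes (PCGs) with the same minimum. In the PABPN IP the median was 63.1 for SLC25 and 32.2 for the other families, against 38.4 over PCGs. SLC25 mRNAs were the more abundant ones, with a median Input TPM of 23.7 against 10.5 for the other families. They held 6 of the 10 most abundant members in the Input. SLC25A5, an ADP/ATP carrier, led every fraction, with 928 TPM in the Input, 669 with PABPN and 2153 with PABPC. It made up 18.1% of the summed member TPM in the Input, 6.73% with PABPN and 18.3% with PABPC. Next in all fractions were SLC25A39, which carries glutathione into mitochondria, with an Input TPM of 228, and the citrate carrier SLC25A1 with 207. The light chain SLC7A5 of the large neutral amino acid transporter had 166, the glutamine transporter SLC1A5 145, the oxoglutarate carrier SLC25A11 142, the dicarboxylate carrier SLC25A10 106 and the creatine transporter SLC6A8 97.6.

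The ADP/ATP carrier genes SLC25A5, SLC25A4 and SLC25A6 share much of their coding sequence. How reads were assigned among them was not tested. Below are 90 coding bases of exon 2 of 4, bases 301 to 390 of each coding sequence, from GENCODE 44 transcripts on hg38. They lie at chrX:119469850-119469939 on the plus strand for SLC25A5, chr4:185144953-185145042 on the plus strand for SLC25A4 and chrX:1389449-1389538 on the minus strand for SLC25A6. Capitals mark bases that differ from SLC25A5, 21 in SLC25A4 and 24 in SLC25A6.
SLC25A5: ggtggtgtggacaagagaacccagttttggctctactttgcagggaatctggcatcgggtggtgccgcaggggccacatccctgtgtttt
SLC25A4: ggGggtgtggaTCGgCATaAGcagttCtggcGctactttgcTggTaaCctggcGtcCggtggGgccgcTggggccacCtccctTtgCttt
SLC25A6: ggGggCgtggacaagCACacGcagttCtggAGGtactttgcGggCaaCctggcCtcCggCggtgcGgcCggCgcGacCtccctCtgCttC
Over the 894 coding bases SLC25A5 was identical to SLC25A4 at 77.2% and to SLC25A6 at 78.7% of positions. The longest identical run between whole transcripts was 14 bases for SLC25A5 and SLC25A4 and 29 for SLC25A5 and SLC25A6. SLC25A6 lies in the pseudoautosomal region, which the annotation holds on both X and Y. It had TPMs of 0.0122 in the Input, 0.00529 with PABPN and 0 with PABPC and so is not a member, but its EPKM was 0.405 in the Input, 0.205 with PABPC and 0.00112 with PABPN. The cause of this mismatch was not tested.

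Editing was detected on most SLC mRNAs in each fraction. EPKM was above 0 for 135 of 174 members in the Input (77.6%, 95% Wilson interval 70.8% to 83.1%), beside 78.1% of PCGs. In the PABPC IP it was above 0 for 152 members (87.4%, 81.6% to 91.5%), beside 82.6% of PCGs, and with PABPN for 123 (70.7%, 63.5% to 76.9%), beside 72.9%. These intervals count genes and hold no replicate error, and all shares lie near those of PCGs. In all fractions together, 87 members were above 0, beside 50.5% of PCGs, and 2 were listed at 0 throughout, beside 2.07%: SLC35A2, the UDP-galactose transporter of the Golgi, and SLC26A11 of a sulfate and anion transporter family, which was picked out after its values were seen. The median EPKM of the members was 0.0259 in the Input, 0.0355 with PABPN and 0.0502 with PABPC, and that of PCGs was 0.0273, 0.0334 and 0.0501. The members' median thus differed by 0.0147 between the IPs, higher with PABPC. This difference was 0.00446 over genes above 0 in both IPs, 0.00489 with a TPM minimum of 1 and 0.00699 over every listed protein-coding SLC gene.

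**Figure D1:**
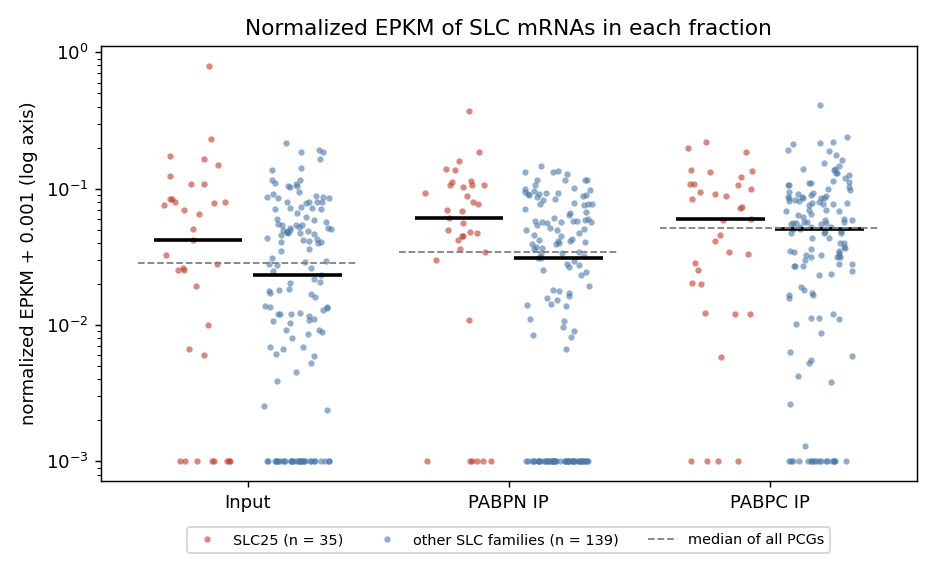
Normalized EPKM, plus 0.001 on a log axis, of each SLC25 mRNA (red, n = 35) and each mRNA of other SLC families (blue, n = 139) in each fraction, with black bars at the medians and dashed lines at the medians of all PCGs. Points on the bottom line are genes listed at 0, and the SLC25 median stood furthest above the other families with PABPN, at 0.0596 against 0.0300.

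SLC25 mRNAs were edited at a higher median than the other families in all fractions. In the Input the medians were 0.0409 for SLC25 and 0.0223 for the others, with PABPC 0.0591 and 0.0493, and with PABPN 0.0596 and 0.0300. The SLC25 medians were thus alike in both IPs. Above 0 with PABPN were 29 of 35 SLC25 members and 94 of 139 others, beside 72.9% of PCGs. The 95% Wilson interval for SLC25 there, 67.3% to 91.9%, includes the PCG share. Above 0 in the Input were 27 and 108, beside 78.1% of PCGs, and with PABPC 31 and 121, beside 82.6%. With a TPM minimum of 10 the Input difference in median EPKM of 0.0186 was 0.00561. The order did not hold for the Input and the PABPC IP among short genes, while it held among long ones. Among genes with a coding length below the PCG median of 1320 bases, the Input medians were 0.0364 for 30 SLC25 members and 0.0392 for 42 others, and those with PABPC were 0.0512 and 0.0570. In the PABPN IP the SLC25 median was still the higher one, 0.0636 against 0.0429. At 1320 bases or more the 5 SLC25 members had medians of 0.0495 in the Input and 0.0824 with PABPC, against 0.0171 and 0.0482 for 97 others. Expressed per 1000 TPM of the same fraction, the order turned as well in the Input, with medians of 1.64 for SLC25 and 1.70 for the others. The medians with PABPC were 0.702 for SLC25 and 1.75 for the others, and those with PABPN were 0.984 and 0.735.

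Between the IPs, 98 members had the higher EPKM with PABPC, beside 56.4% of PCGs, 69 with PABPN, beside 37.4%, and 7 were equal, beside 6.12%. The members' shares lie near those of PCGs. On log2(EPKM + 0.01), 58 members differed by 2-fold or more toward PABPC, beside 36.3% of PCGs, and 34 toward PABPN, beside 21.1%. With a pseudocount of 0.1 these counts were 12 and 4, for which no PCG share at that pseudocount is given here. Of the 35 SLC25 members 9 passed toward the PABPC IP and 11 toward the PABPN IP, and of the 139 others 49 and 23.

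**Figure D2:**
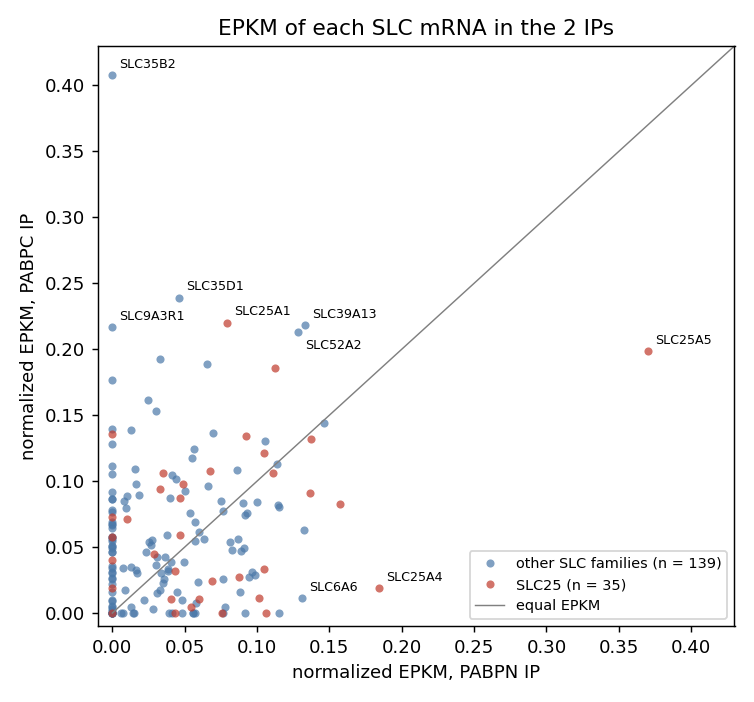
Normalized EPKM of each member with PABPN (x axis) and with PABPC (y axis), SLC25 in red (n = 35) and other SLC families in blue (n = 139), with a line at equal values. SLC35B2 stands highest on the y axis at 0.408 and at 0 on the x axis, and SLC25A5 lies furthest right at 0.370.

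The 10 members with the largest EPKM difference toward PABPC included 4 of the SLC35 family, called the nucleotide sugar group here by family number. Of its 21 members 6 passed 2-fold toward PABPC, beside 36.3% of PCGs, and 4 toward PABPN, beside 21.1%. The median difference of the group was 0 and the mean, which the largest values raise, was 0.0429. SLC35B2, which brings the sulfate donor PAPS into the Golgi, had the largest difference, with an EPKM of 0.408 with PABPC and 0 in both the Input and the PABPN IP. SLC35D1, a carrier of UDP-glucuronic acid in the endoplasmic reticulum, had 0.239 with PABPC and 0.0459 with PABPN. Also of this family were SLC35A4 with a difference of 0.177 and SLC35F1 with 0.160. SLC9A3R1, a scaffold protein for ion exchangers also known as NHERF1, was at 0 in the Input and the PABPN IP and at 0.217 with PABPC. Amino acid carriers stood on this list as well: SLC7A5 had an EPKM of 0.139 with PABPC and 0 with PABPN, and SLC1A5 had 0.161 and 0.0245. The citrate carrier SLC25A1 had 0.220 and 0.0794, the mitochondrial glutamate carrier SLC25A22 0.136 and 0, and the polyamine transporter SLC18B1 0.128 and 0.

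The opposite list, with more editing with PABPN, held 6 SLC25 members among its 10, beside 35 among all 174 members. Both ADP/ATP carriers among the members headed it. The list ranks absolute differences. On log2(EPKM + 0.01) SLC25A5 and SLC25A13 differed by −0.86 each and did not pass 2-fold. SLC25A5 had an EPKM of 0.796 in the Input, 0.370 with PABPN and 0.199 with PABPC, and SLC25A4 had 0.0183, 0.184 and 0.0191. SLC25A26, which imports S-adenosylmethionine, was at 0.106 with PABPN and 0 with PABPC. For the iron carrier SLC25A28 (mitoferrin 2) the values were 0.101 and 0.0112, for SLC25A14 0.0756 and 0, and for the aspartate/glutamate carrier SLC25A13 0.157 and 0.0824. Outside SLC25, the taurine transporter SLC6A6 had 0.131 and 0.0111 and the Golgi zinc transporter SLC30A7 0.115 and 0. SLC35E2B (0.0918 and 0) and the proton-coupled folate transporter SLC46A1 (0.0764 and 0) completed the list.

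Members of the SLC35 family differed in their content of cytosine, the base that APOBEC1 deaminates. The opening 60 bases of the longest coding exon of SLC35B2, highest with PABPC, and of SLC35A2, listed at 0, are shown to print this base in its context, with cytosines in capitals, from GENCODE 44 transcripts on hg38. They lie at chr6:44255585-44255644 in exon 4 of 4 of SLC35B2 and at chrX:48905423-48905482 in exon 4 of 5 of SLC35A2, both on the minus strand.
SLC35B2: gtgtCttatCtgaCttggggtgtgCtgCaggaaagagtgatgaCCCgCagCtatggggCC
SLC35A2: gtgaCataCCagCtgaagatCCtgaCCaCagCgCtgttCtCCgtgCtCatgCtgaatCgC
The stretches contain 12 and 19 cytosines. Over whole coding sequences cytosine made up 29.5% of SLC35B2, 33.6% of SLC35A2, 20.8% of SLC35D1 and 27.0% of SLC35F1. The median was 25.1% for SLC25 members and 27.6% for the other families. The part of cytosine content in the EPKM was not tested. SLC35A2 had 14.6 TPM in the Input and 33.8 with PABPC, below the 45.7 and 129 of SLC35B2.

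Across genes, editing in one fraction ranked the members poorly in another. Over the 174 members Spearman's rho of EPKM was 0.23 for the Input and the PABPC IP, 0.08 for the Input and the PABPN IP and 0.15 for both IPs. TPM ranked them far more alike, with rho of 0.97, 0.89 and 0.85 for the same pairs. EPKM followed the TPM of its own fraction with rho of 0.52 in the Input, 0.51 with PABPC and 0.27 with PABPN. Genes are not replicates, and the fractions come from the same lysates, so these values are a description. Over PCGs, rho of EPKM was likewise low at 0.32, 0.23 and 0.19.

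The amino acid, vitamin, metal and ion carriers that textbooks name showed this variety. Of the 26 textbook members, 17 had an EPKM above 0 in all fractions, beside the 50.5% of PCGs. The heavy chain SLC3A2 was at 0.0533 in the Input, 0.0764 with PABPN and 0.0776 with PABPC, while its partner SLC7A5 was at 0.109, 0 and 0.139. SLC7A11, which exchanges cystine for glutamate, had 0.0425, 0.0904 and 0.0837, and the arginine transporter SLC7A1 0.184, 0.0635 and 0.0563. The glucose transporter SLC2A1 was at 0.0415, 0 and 0.0864, and the lactate transporter SLC16A1 at 0.190, 0 and 0.0269. The riboflavin transporter SLC52A2 was at 0 in the Input, 0.128 with PABPN and 0.213 with PABPC. Among zinc importers, SLC39A14 had 0.00497, 0.0154 and 0.109, SLC39A1 0.186, 0.0888 and 0.0468, and SLC39A13 0.165, 0.133 and 0.218, high in all fractions. The equilibrative nucleoside transporter SLC29A1 was at 0.0842, 0 and 0.00422, and the folate carrier SLC19A1 at 0.0238, 0.0988 and 0.0291.

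Binding was measured as the log2 ratio of average TPM in an IP to that in the Input. PCGs had a median of 1.14 for PABPN and 0.99 for PABPC, and the ratios below are relative to these medians. The TPM minimum used the same IP values, so the ratios are a description, and both comparisons share the Input. For PABPN the members' median was 0.17. A total of 56 members lay above 0.5, beside 24.5% of PCGs, and 11 below −0.5, beside 21.6%. For PABPC the median was 0.08, with 9 members above 0.5, beside 8.37% of PCGs, and 15 below −0.5, beside 18.1%. Without centring no member lay below −0.5 in either IP, and the PCG share without centring is not given here.

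Relative to PCGs, SLC25 mRNAs and the other families lay on opposite sides with PABPN, but not among short genes. Below 1320 coding bases the median PABPN ratio was −0.17 for SLC25 and −0.12 for the others. Over all members the median relative ratio for PABPN was −0.26 for SLC25 and 0.25 for the others, and for PABPC it was 0.23 and 0.05. Counted by gene, 24 of 35 SLC25 members and 51 of 139 others were below 0 for PABPN, beside 50% of PCGs. Above 0 for PABPC were 29 of 35 SLC25 members and 81 of 139 others, beside 50% of PCGs. Without centring, every one of the medians over all members was positive, 0.88 and 1.39 for PABPN and 1.22 and 1.04 for PABPC. Compared directly between the IPs, the relative log2 ratio of PABPC IP to PABPN IP TPM had a median of 0.47 for SLC25 and −0.18 for the others. By this measure 45 members lay above 0.5, beside 30.4% of PCGs, and 56 below −0.5, beside 31.5%. Of these, 16 and 7 were SLC25 members.

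SLC25 mRNAs were themselves spread on both sides with PABPN, though no more often past 0.5 than PCGs. Of 35 members 8 lay above 0.5 (22.9%), beside 24.5% of PCGs, and 5 below −0.5 (14.3%), beside 21.6%. SLC25A5 had the lowest relative PABPN ratio of all members, −1.61, followed within the family by the phosphate carrier SLC25A3 at −0.92, the carnitine/acylcarnitine carrier SLC25A20 at −0.87, the ATP-Mg/phosphate carrier SLC25A23 at −0.69 and SLC25A4 at −0.57. At the other end was SLC25A37 (mitoferrin 1), an iron carrier, with the highest ratio of all members, 2.40, from 8.49 TPM in the Input to 98.3 with PABPN and 17.4 with PABPC. Its relative PABPC ratio was 0.05. The related SLC25A28 had 0.93 for PABPN and 0.08 for PABPC. The pyrimidine nucleotide carrier SLC25A36 (1.55), the basic amino acid carrier SLC25A29 (1.47), SLC25A16 (0.94), the aspartate/glutamate carrier SLC25A12 (0.65), SLC25A53 (0.65) and the NAD carrier SLC25A51 (0.50) also passed 0.5 for PABPN. SLC25A12 and SLC25A13, which exchange the same substrates, had relative PABPN ratios of 0.65 and −0.32.

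SLC25 members varied in editing as well. Shares above 0 were 77.1% in the Input, 82.9% with PABPN and 88.6% with PABPC, beside 78.1%, 72.9% and 82.6% of PCGs. Zeros were thus about as common as over PCGs in the Input and no more common in the IPs. SLC25A10, SLC25A15, SLC25A25, SLC25A26, SLC25A33, SLC25A37, SLC25A43 and SLC25A51 were listed at 0 in the Input but above 0 in at least 1 IP. SLC25A22, SLC25A25, SLC25A30, SLC25A36, SLC25A42 and SLC25A44 were at 0 with PABPN, and SLC25A14, SLC25A20, SLC25A26 and SLC25A42 with PABPC. SLC25A42, a coenzyme A carrier, was thus at 0 in both IPs, with 0.0318 in the Input. The ornithine carrier SLC25A15 had an EPKM of 0.0349 with PABPN and 0.106 with PABPC, and the glycine carrier SLC25A38 0.112 and 0.186. The peroxisomal carrier SLC25A17 had 0.137 and 0.0908, and SLC25A32, which carries folate or FAD, 0.0436 and 0.0320. SLC25A39, second in abundance, had 0.165 in the Input, 0.0875 with PABPN and 0.0276 with PABPC, the reverse order of its rise in TPM. SLC25A24, SLC25A40 and SLC25A46 were above 0 in all fractions, with Input values of 0.107, 0.0270 and 0.122. SLC25A11 varied little, at 0.149 in the Input, 0.105 with PABPN and 0.122 with PABPC.

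**Figure D3:**
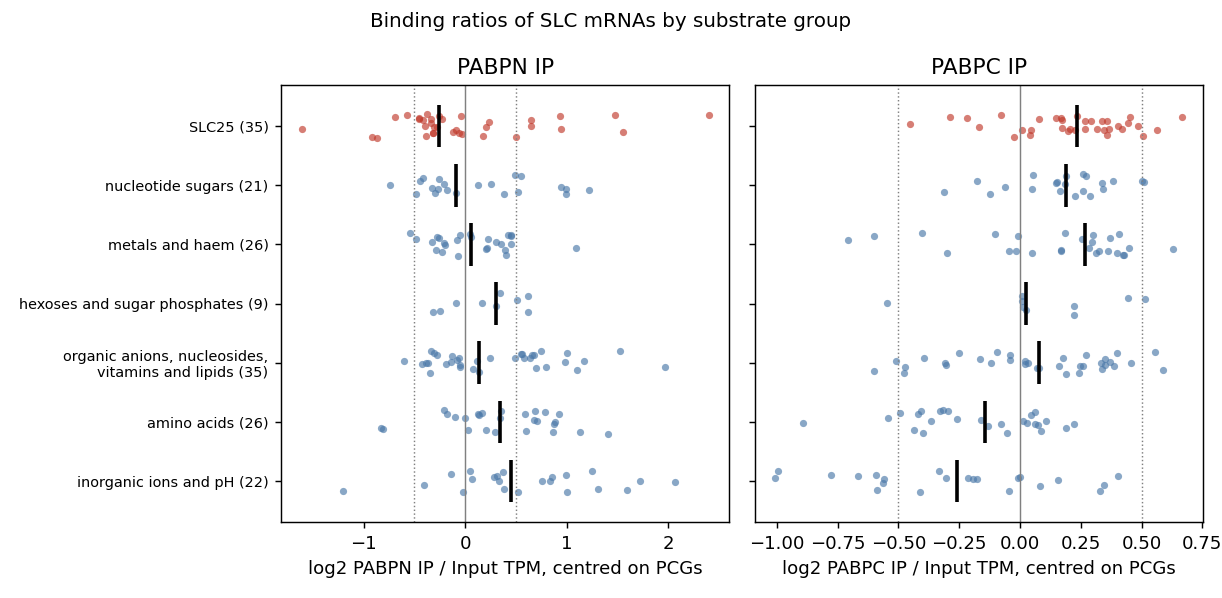
Log2 ratio of TPM with PABPN (left) and with PABPC (right) to that in the Input, relative to the PCG median, for each member by substrate group, with the number of genes in brackets, bars at the medians and dotted lines at −0.5 and 0.5. SLC25 had the lowest PABPN median at −0.26, and inorganic ion carriers had the highest at 0.45.

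Groups were formed by family number, so the substrate in a group's name need not hold for each gene. By group, carriers of inorganic ions and amino acids had the highest PABPN ratios and the lowest PABPC ratios. SLC25, nucleotide sugar and metal carriers had the reverse. The coding lengths of these 5 groups followed the order of their PABPN medians, with medians of 954 bases for SLC25, 1113 for nucleotide sugar, 1395 for metal, 1610 for amino acid and 2222 for inorganic ion carriers. Hexose carriers, with 1476 bases and a PABPN median of 0.30, and carriers of organic anions and others, with 1530 bases and 0.14, lay between metal and amino acid carriers in both, but in the reverse order to each other. The part of length in the order by substrate was not tested. For 22 inorganic ion members the median was 0.45 for PABPN and −0.26 for PABPC. The Golgi sodium/proton exchanger SLC9A8 had 2.07 and −0.30, the sulfate transporter SLC26A2 1.72 and −0.59, and SLC4A11 1.60 and −0.56. The bicarbonate cotransporter SLC4A7 had the lowest PABPC ratio of all members, −1.01, with 1.00 for PABPN. The sodium potassium chloride cotransporter SLC12A2 had −0.14 and −0.78, and the related SLC12A7 0.99 and −0.67. Placed here by their symbols only are 3 genes of proteins that are not carriers: SLC9A3R1 had −1.20 for PABPN and 0.08 for PABPC, SLC9A3R2 −0.41 and 0.40, and SLC4A1AP 0.07 and −1.0. Without these the medians of 19 members were 0.75 and −0.30.

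For 26 amino acid members the medians were 0.35 for PABPN and −0.14 for PABPC. None lay above 0.5 for PABPC, beside 8.37% of PCGs. The Wilson interval for the amino acid members, 0% to 12.9%, includes the PCG share. Without SLC7A6OS, whose product is not a carrier, the medians were 0.34 and −0.16. SLC7A11 had 1.14 and −0.40, and the taurine transporter SLC6A6 0.92 and −0.49. The 2 chains of the large neutral amino acid transporter differed: SLC7A5 had −0.83 for PABPN and 0.01 for PABPC, and SLC3A2 −0.00 and −0.89. SLC1A5 was low in both, at −0.81 and −0.37.

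The 21 members of the nucleotide sugar group, all of SLC35, had medians of −0.09 for PABPN and 0.19 for PABPC. SLC35B2 had −0.41 and 0.51, SLC35A4 −0.74 and 0.26, and SLC35B4 1.00 and 0.19. Among 26 metal and haem members the medians were 0.05 and 0.27. Of 11 SLC39 members, the zinc importer family, 10 were above 0 for PABPC, beside 50% of PCGs and 17 of 21 nucleotide sugar members, and their median was 0.37. The highest was SLC39A4, an intestinal zinc importer, at 0.63. Of 7 SLC30 members 4 were above 0 for PABPC, and 2 zinc exporters were among the 8 lowest members: SLC30A1 of the plasma membrane had 0.39 for PABPN and −0.71 for PABPC, and SLC30A7 had 1.09 and −0.60. The group named for organic anions, nucleosides, vitamins and lipids holds every family not placed in another group. Its 35 members had medians of 0.14 and 0.08. There the choline transporter-like SLC44A5 had 1.97 and 0.25, the ascorbate transporter SLC23A2 1.52 and −0.16, and SLC44A2 0.08 and 0.59. Of 9 hexose and sugar phosphate members, with medians of 0.30 and 0.02, or 0.32 and 0.02 without SLC2A4RG, whose product is not a carrier, the sugar transporter SLC50A1 had −0.09 and 0.51, and SLC2A1 −0.32 and −0.55.

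**Figure D4:**
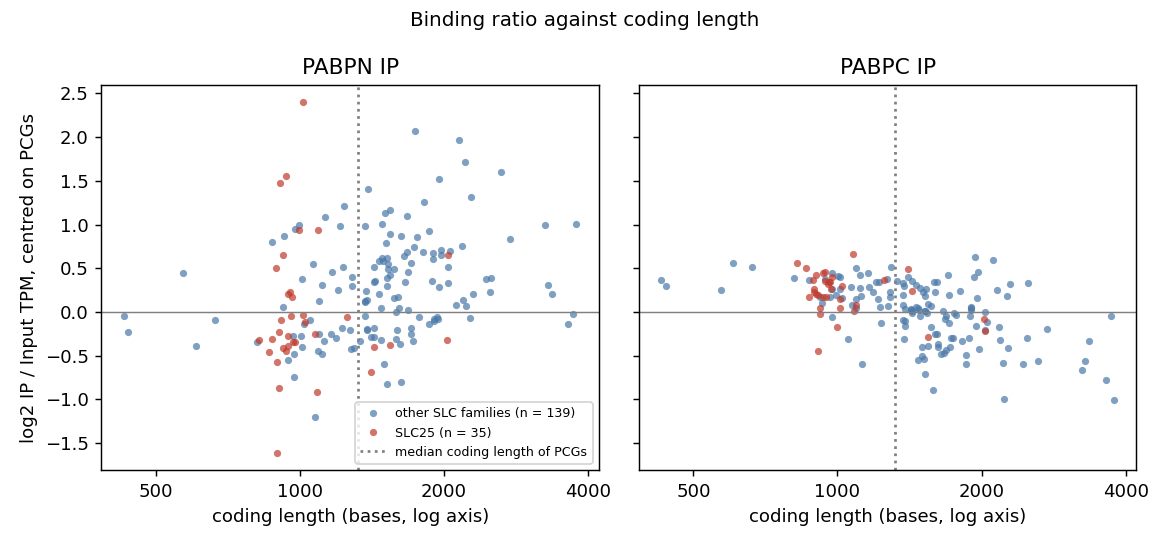
Log2 ratio of IP to Input TPM relative to the PCG median (y axis) against coding length in bases on a log axis (x axis), for PABPN (left) and PABPC (right), SLC25 in red (n = 35) and other families in blue (n = 139), with a dotted line at the median coding length of PCGs. The PABPC ratio fell with coding length over all members (rho −0.54), and most SLC25 genes lie left of the dotted line.

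Coding length, which the selection did not use, moved with both ratios. SLC25 members had a median coding length of 954 bases and the other families one of 1521, and 30 of 35 SLC25 members were shorter than the PCG median of 1320. Over the 174 members Spearman's rho between coding length and relative ratio was 0.35 for PABPN and −0.54 for PABPC. Over PCGs with a length in the annotation it was 0.41 and −0.66. Among members shorter than 1320 bases the median PABPN ratio was −0.17 for 30 SLC25 genes and −0.12 for 42 others, and the median PABPC ratio was 0.27 and 0.26. PCGs below that length had −0.24 and 0.23. The difference of −0.51 between SLC25 and the other families with PABPN was thus −0.06 among short genes, and that of 0.19 with PABPC was 0.01. Among members of 1320 bases or more the median PABPN ratio was −0.38 for 5 SLC25 genes and 0.34 for 97 others, and the median PABPC ratio was −0.08 and −0.04. The PABPN difference was thus near 0 among short genes and not among long ones, where SLC25 had few genes. Total intron length, which is of interest because TPM included intronic reads, had a rho of 0.28 with the PABPN ratio over members. The part of length in the results by family was not tested further.

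Some carriers have no SLC symbol. A list drawn up for these also holds MCU, MTCH1, MTCH2, MAGT1 and TUSC3, which need not encode carriers. No medians without them are given here. Of 28 listed by name, 25 met the TPM minimum, and their medians were −0.13 for PABPN and 0.19 for PABPC, with a median coding length of 1101 bases. EPKM had medians of 0.0544 in the Input, 0.0759 with PABPN and 0.0504 with PABPC. Subunits of the mitochondrial pyruvate carrier differed in editing: MPC1 had 0.440 in the Input, 0.00339 with PABPN and 0.0562 with PABPC, and MPC2 0.275, 0.233 and 0.237. The serine carrier SFXN1 had 0.573, 0.132 and 0.277. UCP2, an SLC25-type carrier under its own name, had the lowest PABPN ratio of this list, −1.14. For comparison, 77 genes of mitochondrial ribosomal proteins, with a median coding length of 588 bases, had a median PABPN ratio of −0.53 and a median PABPC ratio of 0.27. The 133 TMEM-named membrane proteins, with a median coding length of 792 bases, had −0.01 and 0.26.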

How the data were processed

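Ribo-STAMP RNA-seq was made from 17 samples in 6 groups. Reads were aligned to hg38 with STAR and counted with featureCounts 2.0.2, as the submitters' processing notes name. The deposited normalized EPKM is a signal from which the authors subtracted control editing, and it is never below 0. How differences below 0 were treated and which samples entered the averages is not given in the sources used here. The average TPM of each fraction is handled as a score, because the deposited table repeats it for each fraction of a gene. The authors summed exonic and intronic TPM after counting on an annotation based on GENCODE 34, without overlapping regions.

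The members and gene lists were chosen with earlier results of these data known. Substrate groups were set by SLC family number. Genes were named by rule: the 10 members highest in TPM and in EPKM per fraction, the 10 largest EPKM differences each way between the IPs, the 8 highest and 8 lowest binding ratios, the 3 on each side of the TPM minimum, every SLC25 member, the textbook carriers and the carriers without an SLC symbol. The text gives a selection of these. Unmapped columns: 0. No replicate values exist in the table, so no test was run. Medians, counts past a 2-fold or 0.5 log2 threshold and 95% Wilson intervals were computed, with a pseudocount of 0.01 for EPKM. Positions and lengths came from GENCODE 44, by gene identifier and canonical transcript, for 174 of 174 members and 9605 of 9607 PCGs. The summary functions were tested on simulated data. SciPy 1.17.1, pandas 2.3.3 and NumPy 2.4.6 ran under Python 3.11.15, and matplotlib 3.10.9 drew the plots.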

Additional observations from a re-analysis of the deposited data

How the results depend on the processing

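No paired analysis was possible because each fraction holds 1 pooled value per gene. Leaving out a replicate, or a block for replicates, was not run on that account. Of 64 alternatives over 15 results, 45 kept the direction, with a count within 1.5 times or a value within its 95% interval over genes. That interval is wide: the median EPKM difference between the IPs ran from 0.00446 to 0.0184 within it. Also counted as kept was the Input difference between SLC25 and the others, 0.0186, which was 0.00561 with a TPM minimum of 10. Genes are not replicates, so this tally describes the settings and is no measure of stability. Leaving out the 5 SLC symbols of proteins that are not carriers was chosen after seeing the data and is among these 45. With an EPKM pseudocount of 0.1, 12 members passed 2-fold toward PABPC and 4 toward PABPN. Above 0.01 EPKM were 65.5% of members in the Input and 80.5% with PABPC. The PCG share under either setting is not given here. The SLC25 minus other difference of median EPKM turned to −0.00288 in the Input and −0.00588 with PABPC for coding lengths below the median. Per 1000 TPM it was −0.0654 in the Input, −1.05 with PABPC and 0.249 with PABPN, on another scale. A threshold of 1 left 18 members above and 2 below for PABPN and 0 above and 1 below for PABPC, by construction fewer. Without centring 166 members were above and 0 below for PABPN, and 158 above and 0 below for PABPC. The PCG shares under these settings are not given here. The uncentred PCG medians, 1.14 for PABPN and 0.99 for PABPC, also lie above 0.5. For coding lengths below the median the SLC25 minus other difference of the binding ratio was −0.0572 for PABPN and 0.00695 for PABPC. Where no construction gives it, the cause was not tested. Pooled values leave the error between replicates, the depth and the edit count of each gene unknown, so differences between genes with low EPKM cannot be weighed.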

Other observations

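Of the 19 SLC-named genes that are not protein-coding, 11 are listed as long non-coding RNAs. Of these 11, 10 had a higher TPM with PABPN than with PABPC, and 7 more than 2 times as high, beside 90.2% and 63.2% of 2420 listed long non-coding RNAs with a TPM, so the shares are near those of this class. The genes named here were picked after their values were seen. SLC9A3-AS1 had 4.91 TPM in the Input, 75.6 with PABPN and 6.64 with PABPC, with an EPKM of 0.0109, 0.0898 and 0.0578. SLC16A1-AS1 had 34.9 TPM with PABPN and 4.43 with PABPC. The pseudogene SLC7A5P1 had 74.4 TPM with PABPN and 16.7 with PABPC and was listed at 0 EPKM in all fractions.

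SLC5A3, which has no TPM in the table, had an EPKM of 0.0440 with PABPC and 0.00738 with PABPN.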
